A study of Mus musculus with 3 samples.

Results

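The 65 cells described here were epithelial cells of 3 mouse pancreatic tumours. They had many unique molecular identifiers (UMIs, counted RNA molecules) and a set minimum share of Tff1, Tff2 and Lgals4 transcripts. Members were chosen by measured values of each cell, namely its UMI count and the shares of UMIs taken by gate genes. A cell was a member if it had 5000 or more UMIs and 500 or more genes. Tff1, Tff2 and Lgals4 together had to make up 0.3% or more of its UMIs, a criterion called the gastric-type gate below. Limits kept out cells rich in 7 acinar enzyme genes (0.6% or more), in 8 injury-type genes (0.35% or more) and in the basal keratins Krt5, Krt14 and Krt15 (0.3% or more). Further limits were at most 20% mitochondrial UMIs, under 10% UMIs of 3 genes at ribosomal RNA loci, and 60% or more of the barcode's UMIs in its own library. Of 4488 cells with 1000 or more UMIs, 65 were members, and they were 65 of the 285 cells with 5000 or more. Tumour 1 held 23 members, tumour 2 held 1 and tumour 3 held 41. They were set against 790 cells of the same gate with 1000 to under 5000 UMIs, called lower-UMI cells (437, 102 and 251 by tumour).

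All 3 tumours belonged to 1 group. Their cells of origin were tdTomato-positive, MYC-expressing epithelial cells of Msi2-Myc; R26-LSL-tdTomato mice, taken 5 weeks after tamoxifen. These cells had been transplanted into the pancreas of immunodeficient NSG mice, and EpCAM-positive cells were sorted from each end-stage tumour for droplet-based 3' RNA sequencing. The labels give no age, no untransplanted control and no statement on which tumours shared a donor. The fit below has tumour as a block, so p-values measure how differences between groups of cells vary from tumour to tumour. That variation was pooled over all groups fitted, and member sums came from tumours 1 and 3 only.

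Trefoil peptides such as Tff1 and Tff2 are small secreted proteins that protect and repair the mucus layer of the stomach, and galectin 4 (Lgals4) binds sugars at the surface of gut epithelium. Pancreatic duct cells do not normally make gastric mucus peptides in quantity. They start to do so in metaplasia and in early pancreatic neoplasia, where gastric, mucin-processing and host-defence genes come on beside the simple keratins of ducts. How many UMIs a cell yields depends on its size, on its RNA content and on how well its RNA was captured, and these cannot be told apart here.

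The libraries held 11502184, 9737397 and 16521484 UMIs over all barcodes. Members had a median of 8005 UMIs and 2524 genes, against 1588 UMIs and 791.5 genes in lower-UMI cells, which restates the rule. Summed over cells, members gave 259317, 5027 and 491588 UMIs in tumours 1, 2 and 3, against 800505, 143232 and 503405 UMIs in lower-UMI cells. Mitochondrial genes took a median of 9.22% of UMIs in members, against 3.86% in lower-UMI cells. Barcodes recurred across libraries: all 65 members' barcodes had 10 or more UMIs in every library, and 55 had 1000 or more in another one. The barcodes of the tumour 1 members carried 56407 UMIs in library 2 and 26106 in library 3. Their home libraries held 71.3% to 85.4% of these UMIs, and no barcode reached 90%. With the 60% limit lifted, the comparison below gave 265 genes higher and 686 lower in members.

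The threshold cut through a continuous range. The member with the fewest UMIs had 5018 and the gate cell next below it had 4897, and 20 gate cells lay on each side within 1000 UMIs of the threshold. The lowest share of gate genes in a member was 0.303%, and 0.286% in the nearest cell outside. The acinar limit was not close, since the highest member had 0.274% and the lowest cell that failed only this limit had 1.07%. Of cells with 5000 or more UMIs, 61 failed only the gastric-type gate, 8 only the acinar limit and 2 only the injury limit.

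Members were 5.0% of all gastric-gate cells of tumour 1, with an exact Clopper-Pearson 95% interval of 3.20 to 7.41. The share was 0.971% for tumour 2 (interval 0.0246 to 5.29) and 14.0% for tumour 3 (interval 10.3 to 18.6). The mean over tumours was 6.67% ± 6.69 (SD, n = 3). For scale, cells with 5000 or more UMIs were 5.06%, 5.88% and 16.4% of cells that passed an acinar gate in the same tumours. Intervals cover counting error only. Tumour 2's 1 member is described but enters no fit, because sums needed 10 or more cells.

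The label of these cells lists 7 marker genes, and the UMIs of 2 of them, Chil3 and Chil4, were few or none. Levels are given as CPM, the UMIs of a gene over the summed cells of a tumour after scaling every sum to the same total. Tff1 (chromosome 17:31161395-31165277, mm10), which is also a gate gene, had 4084 CPM in the members of tumour 1 and 4313 CPM in those of tumour 3. Lower-UMI cells of the 3 tumours had 6646, 6800 and 7054 CPM, in tumour order. As the rule used Tff1 in both groups, these levels are a description only. Onecut2, a homeodomain transcription factor of developing foregut and liver (chromosome 18:64340020-64400987), had 999 and 1300 CPM in members, against 568, 761 and 624 CPM in lower-UMI cells, and these groups did not overlap. Here and below, overlap compares the CPM of 2 member sums with that of 3 lower-UMI sums. The share of all genes whose sums do not overlap is not given, so a lack of overlap only describes these sums. Pigr carries antibodies across mucosal epithelium. It had 926 and 2321 CPM in members, against 868, 1522 and 1504 CPM in lower-UMI cells, and here the groups overlapped. Duox2, an oxidase that makes hydrogen peroxide at mucosal surfaces, had 197 and 348 CPM in members, against 134, 97.7 and 191 CPM in lower-UMI cells. Gkn1, a gastrokine of the stomach lining, had 112 and 250 CPM in members, against 83.7, 55.9 and 185 CPM in lower-UMI cells. Duox2 was higher in both member sums than in every lower-UMI sum, while Gkn1 overlapped. Of the 5 label markers tested, Onecut2 was higher, Chil4 was lower, and Duox2, Pigr and Gkn1 did not pass in the test described below. The call of Onecut2 depended on the fit, with the alternatives also explained below. None of the 5 was higher with DESeq2's test, without the tumour block, at a 0.6% gastric-type gate or with thinned cells. With DESeq2's size factors 2 were higher. Gkn1 had a UMI in 17 of 65 members. The tumour 2 member had 16 UMIs of Pigr, 5 of Onecut2, 1 of Duox2 and none of Tff1 or Gkn1.

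**Figure D1:**
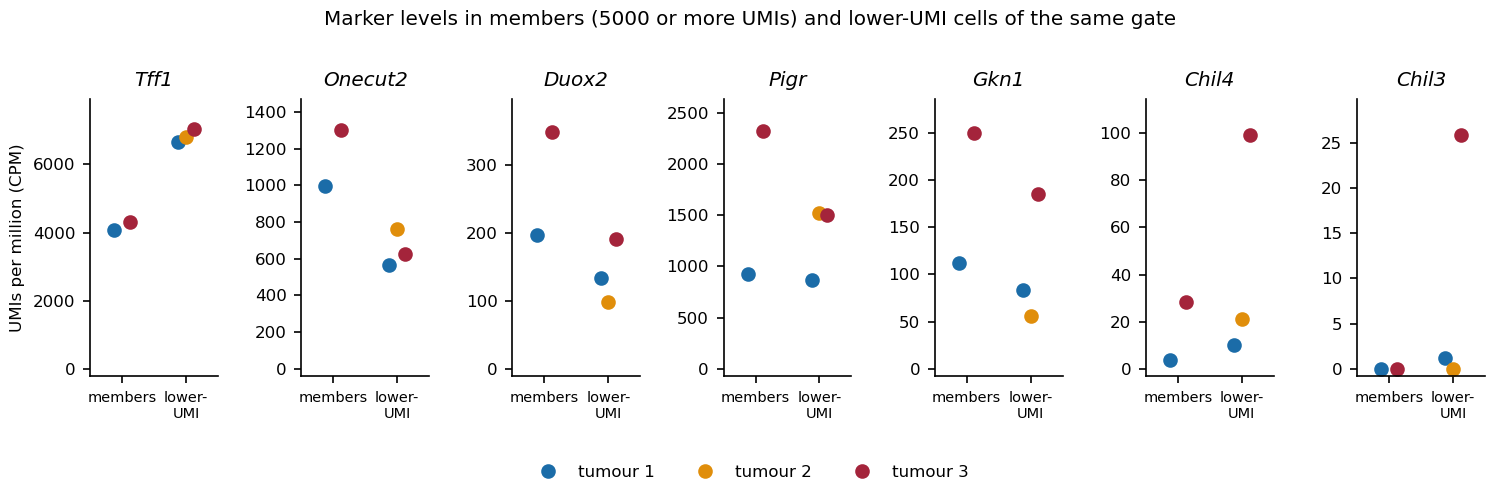
CPM (vertical axis) of the 7 marker genes of the label, 1 point per tumour sum, with members on the left and lower-UMI cells on the right of each panel; the 1 member of tumour 2 is not drawn. Members of tumours 1 and 3 lay below all lower-UMI sums for Tff1 (4084 and 4313 CPM), above them for Onecut2 (999 and 1300 CPM), and at 0 for Chil3.

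The chitinase-like genes Chil3 and Chil4 went against the label. Chil3 (chromosome 3:106147554-106167564) had no UMI in any member, which allows up to 11.6 CPM in tumour 1 and 6.10 CPM in tumour 3 (3 counts per sum). Lower-UMI cells had 1.25, 0 and 25.8 CPM of Chil3 from 1, 0 and 13 UMIs. Chil4 had 15 UMIs in 8 of the 65 members, that is 3.86 CPM (tumour 1) and 28.5 CPM (tumour 3), against 9.99, 20.9 and 99.3 CPM in lower-UMI cells. The 2 genes are close paralogs, and the authors' counting could split their reads. Their UMIs lay mainly outside the gate: cells of tumour 3 with 5000 or more UMIs that failed only the gastric-type gate held 223 UMIs of Chil3 and 776 of Chil4. In those 41 cells Onecut2, Pigr, Duox2 and Gkn1 had 897, 603, 82.3 and 13.7 CPM, against 1300, 2321, 348 and 250 CPM in members of tumour 3. In the 14 such cells of tumour 1 these 4 genes had 967, 729, 168 and 110 CPM. Members of tumour 1 were close to that, at 999, 926, 197 and 112 CPM. The 6 such cells of tumour 2 had 159, 234, 75.3 and 0 CPM. Of all UMIs of Chil3 in tumour 3, 169 of 326 came from 1 cell of 29834 UMIs, with 0.0536% gate genes. The members are therefore named by the gate and not by the full marker list.

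Duct and epithelial markers were present. Krt19, the keratin that defines ductal epithelium, had 2321 and 2771 CPM in members, against 3854, 3358 and 4599 CPM in lower-UMI cells. Epcam, the antigen used for the sort, had 764 and 1269 CPM in members, against 625, 866 and 765 CPM in lower-UMI cells. With every cell thinned to 1000 UMIs, Pigr had a UMI in 70.8% of members, 59.1% of lower-UMI cells, 7.22% of acinar-gate cells with 5000 or more UMIs and 4.04% of acinar-gate cells below that. Duox2 had a UMI in 27.7% of members and 12.3% of lower-UMI cells, and in 0 of 97 and 1 of 693 acinar-gate cells. These shares pool tumours that each group holds in unlike proportions. Within tumour 1 the Pigr share was lower in members (43.5%) than in lower-UMI cells (51.9%), and within tumour 3 it was higher (85.4% against 68.1%). Duox2 stood at 13.0% of members against 10.5% of lower-UMI cells in tumour 1, and at 34.1% against 16.7% in tumour 3. Without thinning, Pigr had a UMI in 98.5% of members, 72.3% of lower-UMI cells, 38.1% of high-UMI acinar-gate cells and 9.81% of lower-UMI acinar-gate cells, at median depths of 8005, 1588, 10660 and 1852 UMIs. Duox2 had one in 72.3%, 21.3%, 8.25% and 1.01% of these cells, in the same order. With cells thinned to 1000 UMIs, both shares were higher in members than in acinar-gate cells. Acinar-gate cells were selected for a low share of the gastric-type gate genes. The marker list was chosen with earlier results of these data known, so this contrast is a description only.

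Markers of most other cell types were scarce, while squamous and cornified-envelope genes were not. All 12 endocrine, 9 fibroblast, 7 erythroid and 7 mesothelial markers stood at 0 UMIs over the 755932 UMIs of the members. Endothelial markers gave 6 UMIs, myeloid markers 11, lymphoid markers 2, hepatocyte markers 8, Schwann cell markers 7 and tuft cell markers 47. Squamous genes outside the gates gave 443 UMIs (393 and 690 CPM in members, against 523, 761 and 838 CPM in lower-UMI cells). Cornified-envelope genes gave 446 UMIs (594 and 590 CPM in members, against 625, 356 and 882 CPM in lower-UMI cells). Acinar genes outside the gate summed to 5133 and 9679 CPM in members, against 3814, 4664 and 8591 CPM in lower-UMI cells, and nearly all of this was Reg1, a regenerating-family lectin (4986 and 9272 CPM in members, against 3645, 4475 and 8256 CPM in lower-UMI cells). None of the 18 acinar genes tested passed the test described next (1 was higher with DESeq2's size factors). Barcodes with 10 to 100 UMIs, taken as free RNA, had 5310 to 6447 CPM of the same acinar genes.

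Of 7293 genes tested across the whole table, 240 were higher in members (3.29%) and 697 were lower (9.56%), 12.8% in either direction. The test was edgeR's quasi-likelihood test on UMIs summed per tumour, with tumour as a blocking term and p-values adjusted by Benjamini-Hochberg. Gate genes were left out of all counts. Log2 differences carry a composition scaling (TMM): before it, member-to-lower-UMI ratios stood 0.21 (tumour 1) and 0.30 (tumour 3) higher on the log2 scale. A gene whose CPM was equal in members and lower-UMI cells therefore has a negative log2 difference. With DESeq2's size factors in place of TMM the split was 418 higher and 643 lower. DESeq2's own test called 36 higher and 284 lower, and the fit without the tumour block 28 and 155. Leaving out tumour 1 left 2 genes higher and 15 lower, and leaving out tumour 3 left 81 and 330. Either omission leaves 1 member sum, assumed to vary like the other sums, and in both fits there was 1 residual degree of freedom.

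The 12 genes with the largest rise in members at 50 CPM or more were required by the naming rule to share their sign in both tumours. Cdkn3, a phosphatase that acts on cyclin-dependent kinases, had 77.1 and 28.5 CPM in members, against 12.5, 20.9 and 5.96 CPM in lower-UMI cells (log2 difference 2.01 ± 0.52 SE, adjusted p = 0.00207, edgeR). Pan3, a subunit of a poly(A) nuclease, had 65.6 and 93.6 CPM in members, against 21.2, 34.9 and 19.9 CPM in lower-UMI cells (1.70 ± 0.37, adjusted p = 0.000134). Both stood above every lower-UMI sum. Ogt, the enzyme that puts N-acetylglucosamine on intracellular proteins, had 81.0 and 128 CPM in members, against 31.2, 55.9 and 29.8 CPM in lower-UMI cells (1.40 ± 0.32, adjusted p = 0.000347). The kinetochore scaffold gene Knl1 had 96.4 and 30.5 CPM in members, against 20.0, 6.98 and 11.9 CPM in lower-UMI cells (1.63 ± 0.43). The others were Gm26870, the lysophosphatidic acid receptor gene Lpar6, Sema3c, the pre-mRNA cleavage factor gene Pcf11, Rc3h2, the ubiquitin ligase gene Cbl, Oxsr1 and the pore-forming Gsdme, with log2 differences of 1.38 to 1.88. Sema3c overlapped between groups (84.8 and 30.5 CPM in members, against 22.5, 48.9 and 5.96 CPM in lower-UMI cells). Without tumour 1 none of these 12 passed, and without tumour 3 only 1 of the 11 still fitted did.

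The 12 largest falls were steeper. Hist1h2ap, a replication-dependent histone H2A gene (chromosome 13:21833026-21833507, minus strand), had 15.4 and 4.07 CPM in members, against 332, 377 and 79.5 CPM in lower-UMI cells (log2 difference -4.73 ± 0.40, adjusted p = 1.39e-27, edgeR). The member sums lay far below all lower-UMI sums. The histone genes Hist1h2ae, Hist1h1b and Hist1h4d fell by 3.35, 3.00 and 2.27 on the log2 scale. Tmem160 had 15.4 and 16.3 CPM in members, against 86.2, 83.8 and 77.5 CPM in lower-UMI cells (-2.63 ± 0.41, adjusted p = 1.43e-08). Acads, a mitochondrial enzyme of short-chain fatty acid oxidation, had 23.1 and 26.4 CPM in members, against 91.2, 41.9 and 77.5 CPM in lower-UMI cells (-1.94 ± 0.37). Dcxr, a reductase of sugars and dicarbonyls, had 11.6 and 44.8 CPM in members, against 92.4, 69.8 and 103 CPM in lower-UMI cells (-1.91 ± 0.35). Akr7a5 and Dhrs4, also reductases, the apoptosis genes Siva1 and Bad, and Dpm3, a subunit of dolichol-phosphate mannose synthase, completed the list at -1.87 to -2.14. Without tumour 1, 4 of these 12 passed, and without tumour 3, 10 did.

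Gastric secretory genes moved in both directions. Of 15 tested, 3 were higher and 3 lower in members, with a median log2 difference of 0.01, against -0.01 over all genes tested. For this list and those below, the shares over all genes tested were 3.29% higher and 9.56% lower. Counts in lists were not tested against these shares. Vsig1, an adhesion protein of stomach epithelium, had 216 and 382 CPM in members, against 134, 126 and 151 CPM in lower-UMI cells (0.84 ± 0.21, adjusted p = 0.0017, edgeR). Tspan8, a tetraspanin, had 1215 and 1253 CPM in members, against 562, 579 and 705 CPM in lower-UMI cells (0.71 ± 0.18, adjusted p = 0.00143). Agr2, an isomerase needed to fold mucins, had 116 and 480 CPM in members, against 92.4, 182 and 193 CPM in lower-UMI cells (0.71 ± 0.22). Vsig1 and Tspan8 did not overlap between groups, whereas Agr2 did. The protease inhibitor gene Spink4, known from mucus-secreting goblet cells, had 127 and 415 CPM in members, against 440, 621 and 834 CPM in lower-UMI cells (-1.54 ± 0.19, adjusted p = 5.02e-13). Muc1, a membrane-bound mucin, fell by 0.83 and Vsig2 by 1.02. Of the gastric gel-forming mucin genes, Muc5ac had no UMI in any member and Muc6 had 1. Dmbt1, a large secreted scavenger receptor, was abundant and did not pass, with 2703 and 5204 CPM in members, against 2262, 4007 and 4255 CPM in lower-UMI cells (-0.16 ± 0.19, adjusted p = 0.671). Tspan8, Agr2 and Dmbt1 were chosen after their values were seen. Without tumour 1 no gene of the list passed, and without tumour 3, 1 rose and 1 fell.

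Enzymes that build mucin sugars had 3 higher calls. Of 15 tested, 3 rose and none fell, with a median log2 difference of 0.59, and the summed level was 1357 and 1345 CPM in members, against 742, 1019 and 769 CPM in lower-UMI cells. C1galt1, which makes the core 1 O-glycan, had 139 and 136 CPM in members, against 51.2, 41.9 and 59.6 CPM in lower-UMI cells (1.08 ± 0.28, adjusted p = 0.0025, edgeR). Galnt4, which adds the first sugar of such chains, had 189 and 153 CPM in members, against 74.95, 41.9 and 77.5 CPM in lower-UMI cells (0.92 ± 0.26, adjusted p = 0.00545). Neither gene overlapped between groups. Galnt7, of the same enzyme family, rose by 0.86 and was chosen after its value was seen. The fucosyltransferase genes Fut4 and Fut9 had log2 differences of 1.57 ± 0.80 and 1.04 ± 0.53 and did not pass (adjusted p = 0.196 and 0.199). With members thinned to 5000 UMIs and lower-UMI cells to 1000 before summing, so that cells of a class weighed alike, none of the 11 genes still tested passed, at a median of 0.45. Without tumour 1 none passed either, at a median of 0.53, and without tumour 3, 2 of 10 rose.

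Mucosal defence genes did not move as 1 group. Of 14 tested, none rose and 3 fell, with a median of -0.42, but the count of higher genes depended on the scaling: with DESeq2's size factors 3 rose and 3 fell. With cells thinned, 2 of 11 rose and 1 fell, at a median of -0.01, and without tumour 2, 2 of 13 rose and 3 fell. Lcn2, which withholds iron from bacteria, had 139 and 500 CPM in members, against 267, 391 and 1377 CPM in lower-UMI cells (-1.51 ± 0.20, adjusted p = 1.8e-11, edgeR). Its groups overlapped across tumours, and within tumours 1 and 3 the members were lower. Wfdc2 fell by 0.89 (chosen after its value was seen), and Chil4 was the other. The antibacterial lectin gene Reg3b had 2368 and 3849 CPM in members, against 1413, 1487 and 2517 CPM in lower-UMI cells, and did not pass (0.44 ± 0.19, adjusted p = 0.112). Summed over the list, CPM was 5260 and 9982 in members, against 3982, 5306 and 8222 in lower-UMI cells. Thus the sum stood higher in members of both tumours while the median of the genes was negative. Without tumour 1 no gene of the list passed, at a median of -0.46, and without tumour 3, 1 of 9 rose and 2 fell, at 0.04.

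Among 18 foregut transcription factor genes tested, 3 rose and 1 fell. Foxa1, a pioneer factor of endoderm, had 185 and 116 CPM in members, against 77.5, 133 and 61.6 CPM in lower-UMI cells (0.88 ± 0.27, adjusted p = 0.015, edgeR). Klf4, a zinc finger factor of surface epithelia that also counts here as an immediate early gene, had 270 and 224 CPM in members, against 116, 105 and 111 CPM in lower-UMI cells (0.80 ± 0.22, adjusted p = 0.0048). Klf4 did not overlap between groups, and Foxa1 did. Onecut2 of the label was the third that rose, and Elf3, an epithelial ETS factor named after its value was seen, fell by 0.54. Foxa2 had a log2 difference of -1.39 ± 0.56 at 7.71 and 14.2 CPM in members, against 17.5, 14.0 and 41.7 CPM in lower-UMI cells, and did not pass (adjusted p = 0.084). Without tumour 1 none of the list passed, and without tumour 3, 2 rose.

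Most called keratins and claudins of ducts were lower in members. Of 15 duct genes tested, 8 fell and 1 rose, with a median of -0.57, and the list summed to 8877 and 10194 CPM in members, against 11500, 11590 and 12906 CPM in lower-UMI cells. Krt19, whose levels are given above, had a log2 difference of -1.004 ± 0.19 (adjusted p = 6.59e-06, edgeR). Krt18, another simple keratin, had 833 and 844 CPM in members, against 1358, 1299 and 1353 CPM in lower-UMI cells (-0.96 ± 0.19, adjusted p = 1.05e-05). Cldn3, a tight junction protein, had 96.4 and 116 CPM in members, against 234, 182 and 266 CPM in lower-UMI cells (-1.47 ± 0.23). These 3 genes did not overlap between groups. Spp1, osteopontin, was the 1 that rose, with 201 and 476 CPM in members, against 84.9, 119 and 280 CPM in lower-UMI cells (0.64 ± 0.21, adjusted p = 0.0217; chosen after its value was seen). Epcam did not pass (0.27 ± 0.18, adjusted p = 0.363). Without tumour 3, 5 of 13 fell, and without tumour 1 none passed, at a median of -0.63.

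**Figure D2:**
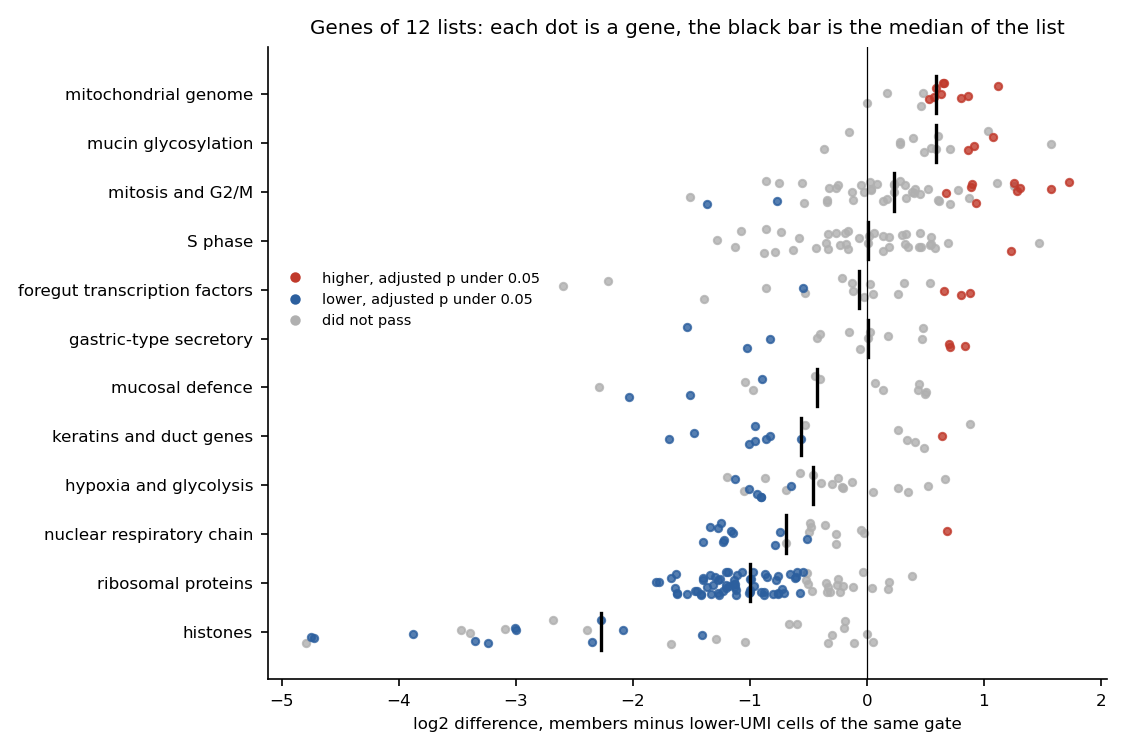
Log2 difference, members minus lower-UMI cells (horizontal axis), for the genes of 12 lists; each dot is a gene, the black bar is the list's median, and colour shows whether the gene passed edgeR's test at an adjusted p of 0.05 (red higher, blue lower, grey not passed). Medians ran from 0.60 for the mitochondrial genome to -0.996 for ribosomal proteins and -2.27 for histones.

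The broadest shift was in ribosomal protein genes, whose products form the ribosome. Of 80 tested, 62 fell and none rose (65 and 1 with DESeq2's size factors), with a median of -0.996. Together they took 200380 and 175204 CPM in members, against 286868, 262302 and 287717 CPM in lower-UMI cells, with no overlap, and 154853 to 175323 CPM in free RNA. Rpl36 had 1658 and 1253 CPM in members, against 4247, 3665 and 3965 CPM in lower-UMI cells (-1.80 ± 0.20, adjusted p = 7.75e-16, edgeR). Rps14 fell by 1.78, Rpl37 by 1.67 and Rpl37a by 1.64. The 18 others did not pass. Rpl5 had 3081 and 2457 CPM in members, against 2077, 2534 and 1806 CPM in lower-UMI cells (0.18 ± 0.19, adjusted p = 0.603), and Rpl39 and Rps4x had log2 differences of 0.19 and -0.03. Rpl5, Rpl39 and Rps4x were chosen after their values were seen. Ribosomal protein genes have many near-identical pseudogenes, so the level of any 1 is uncertain. Without tumour 1 the median was -1.11 with no gene passing, and without tumour 3 it was -0.86 with 58 falling.

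Histone genes fell furthest. Of 29 tested, 11 fell and none rose, with a median of -2.27, and the list summed to 459 and 580 CPM in members, against 1377, 1313 and 961 CPM in lower-UMI cells. Free RNA held more, at 2304 to 4123 CPM. Hist1h2ab had 0 and 2.03 CPM in members, against 41.2, 48.9 and 37.7 CPM in lower-UMI cells (adjusted p = 1.62e-07, edgeR). Hist2h2ac had 0 and 4.07 CPM in members, against 43.7, 83.8 and 21.9 CPM in lower-UMI cells (adjusted p = 2.17e-06). Both genes were lower in members of each tumour, and histone copies are near-identical, so single genes are uncertain. The histone and ribosomal protein lists were added after the data were seen. Without tumour 1, 4 of 30 histone genes fell at a median of -1.36, and without tumour 3, 7 of 15 did.

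Genes of the mitochondrial genome ran the other way. Of 13 tested, 9 rose and none fell, with a median of 0.60, and their sum was 85826 and 115845 CPM in members, against 47020, 56866 and 56726 CPM in lower-UMI cells. The rule capped this share at 20% in both groups. mt-Cytb, a subunit of complex III, had 9872 and 15212 CPM in members, against 4670, 5543 and 6007 CPM in lower-UMI cells (0.80 ± 0.20, adjusted p = 0.00129, edgeR). mt-Nd5, of complex I, had 1249 and 1609 CPM in members, against 651, 908 and 630 CPM in lower-UMI cells (0.86 ± 0.19, adjusted p = 0.000118). In both genes every member sum lay above every lower-UMI sum. With mitochondrial genes left out of the sums, 308 genes were higher and 640 lower in members. Without tumour 1 none of the 13 passed, at a median of 0.56. Of the 10 most abundant transcripts of members, 5 came from this genome, led by mt-Atp6 with 18171 and 24600 CPM in members. The others were Gm42418 (a ribosomal RNA locus), Eef1a1, Reg1, Malat1 and Tmsb4x. Tmsb4x, an actin-binding thymosin, had 12614 and 14199 CPM in members, against 8427, 8434 and 10671 CPM in lower-UMI cells, and did not pass after scaling (0.16 ± 0.20, adjusted p = 0.676).

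Nuclear genes of the same respiratory chain were mostly lower. Of 21 tested, 11 fell and 1 rose, with a median of -0.69, and their sum was 9984 and 10916 CPM in members, against 12838, 11848 and 14458 CPM in lower-UMI cells. Atp5e, the small epsilon subunit of ATP synthase, had 351 and 482 CPM in members, against 882, 656 and 975 CPM in lower-UMI cells (-1.40 ± 0.19, adjusted p = 8.33e-11, edgeR). Cox5b, of cytochrome c oxidase, had 335 and 352 CPM in members, against 661, 566 and 709 CPM in lower-UMI cells (-1.27 ± 0.19, adjusted p = 5.6e-09). Neither overlapped between groups. Uqcrb, of complex III, was the 1 that rose, with 806 and 836 CPM in members, against 356, 426 and 507 CPM in lower-UMI cells (0.68 ± 0.18, adjusted p = 0.00339; chosen after its value was seen). Hypoxia and glycolysis genes had 6 of 23 entries lower and none higher, at a median of -0.46. Gapdh, a glycolytic enzyme, had 1138 and 881 CPM in members, against 1935, 1592 and 1613 CPM in lower-UMI cells (-1.12 ± 0.19, adjusted p = 3.63e-07). Without tumour 1 no gene of either list passed, at medians of -0.75 and -0.37.

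Mitotic genes had no stable direction. Of 49 G2/M genes tested, 9 rose and 2 fell, with a median of 0.23. With a gastric-type gate of 0.6% none of 44 rose and 3 fell, at a median of -0.35, and with a member minimum of 8000 UMIs 1 of 51 rose and 8 fell, at -0.42, with member sums from tumour 3 only. Their sum was 6270 CPM in members against 3671 CPM in lower-UMI cells of tumour 1, but 2653 CPM in members against 2537 CPM in lower-UMI cells of tumour 3. Mki67, the proliferation antigen Ki-67, had 436 and 222 CPM in members, against 152, 161 and 65.6 CPM in lower-UMI cells (1.28 ± 0.21, adjusted p = 6.41e-08, edgeR; chosen after its value was seen). The Mki67 sums did not overlap. Nek2, a centrosome kinase, had 84.8 and 10.2 CPM in members, against 11.2, 20.9 and 9.93 CPM in lower-UMI cells (1.73 ± 0.52, adjusted p = 0.0105), and only its tumour 1 member sum stood above the lower-UMI sums. Without tumour 1 it was at -0.10. Cdca8, of the chromosomal passenger complex, fell, with 46.3 and 20.3 CPM in members, against 87.4, 76.8 and 45.7 CPM in lower-UMI cells (-1.36 ± 0.36). Without tumour 1 the list's median was -0.16 with no gene passing, and without tumour 3 it was 0.50 with 10 genes higher. S-phase genes had 1 of 41 higher (Casp8ap2, 1.23 ± 0.40) and none lower, at a median of 0.01.

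Transcripts of Myc, the driver of the model, did not differ detectably. Myc had 34.7 and 40.7 CPM in members, against 37.5, 34.9 and 23.8 CPM in lower-UMI cells (0.08 ± 0.40, adjusted p = 0.928, edgeR). Reads of the transgene and of the native gene cannot be told apart. Msi2, whose name the line carries, had 170 and 124 CPM in members, against 86.2, 140 and 61.6 CPM in lower-UMI cells, and did not pass (0.63 ± 0.26, adjusted p = 0.0909). Of 35 MYC target genes tested, 1 rose and 5 fell, at a median of -0.13, whereas 5 rose and 5 fell with DESeq2's size factors. Without tumour 2 the counts were 4 and 6, and with cells thinned they were 2 and 1 of 34. Nhp2, a protein of the nucleolar RNA-modifying complex, had 208 and 165 CPM in members, against 437, 342 and 282 CPM in lower-UMI cells (-1.20 ± 0.21, adjusted p = 7.08e-07). Nhp2 did not overlap between groups. Eif4e, the cap-binding translation factor, was the 1 that rose (0.73 ± 0.23; chosen after its value was seen). Without tumour 1 none of the 35 passed, and without tumour 3, 1 fell.

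Of 4 long nuclear RNAs tested, 2 were higher in members and none lower, while without tumour 3, 1 was higher and 1 lower. Kcnq1ot1, a long non-coding RNA of the imprinted Kcnq1 locus (chromosome 7:143203458-143296549, minus strand), had 278 and 515 CPM in members, against 130, 202 and 117 CPM in lower-UMI cells (1.31 ± 0.20, adjusted p = 1.46e-08, edgeR). It passed without tumour 1 (1.69) and without tumour 3 (0.85). It lies antisense to Kcnq1, and the sources used here do not say whether counting used strand. Neat1, the scaffold RNA of paraspeckles, had 617 and 1841 CPM in members, against 497, 740 and 600 CPM in lower-UMI cells (0.64 ± 0.19, adjusted p = 0.0101). Without tumour 3 its difference was -0.06. Malat1, the most abundant of these, did not pass, with 2973 and 10633 CPM in members, against 3849, 5411 and 4525 CPM in lower-UMI cells (0.15 ± 0.20, adjusted p = 0.698), and with 22330 to 31137 CPM in free RNA.

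The remaining lists held few calls, and several of their counts moved with the scaling. Over all genes tested 3.29% were higher and 9.56% lower, so 1 or 2 calls in a short list say little about that list. Immediate early genes had 2 of 18 higher, Fosb and Klf4, and 4 with DESeq2's size factors. Fosb, an AP-1 subunit, had 170 and 313 CPM in members, against 72.5, 105 and 131 CPM in lower-UMI cells (0.85 ± 0.23, adjusted p = 0.00316, edgeR). Stem and progenitor genes had 1 of 9 higher (the receptor gene Lgr4, 0.92 ± 0.28), but 4 of 9 with DESeq2's size factors, 3 of 9 without tumour 2 and none without tumour 1 or tumour 3. Ion transport genes had 1 of 12 higher (the chloride cotransporter gene Slc12a2, 0.90 ± 0.28) and 2 lower, and 2 and 1 with those size factors. The p53 and cell-cycle inhibitor genes had 3 of 15 lower. Of these Bax, which permeabilises mitochondria in apoptosis, had 147 and 173 CPM in members, against 286, 258 and 280 CPM in lower-UMI cells (-1.12 ± 0.21, adjusted p = 4.27e-06). Ly6d, which belongs to both the basal and the squamous list, had 42.4 and 216 CPM in members, against 190, 321 and 449 CPM in lower-UMI cells (-1.65 ± 0.22, adjusted p = 3.67e-11). Lower calls numbered 2 of 12 interferon genes, 1 of 6 antigen presentation genes, 1 of 6 chemokine genes, 1 of 7 EGF family genes, 2 of 7 intestinal genes, 1 of 5 cornified-envelope genes, 1 of 24 secretory-pathway genes and 1 of 25 junction genes. With DESeq2's size factors 3 secretory-pathway genes, 2 junction genes and 1 EGF family gene were also higher, and 1 interferon gene was lower. No gene passed among the 6 acinar transcription factors, 4 YAP targets, 7 MYC network genes and 1 mesenchymal gene tested, apart from 1 MYC network gene that was higher with DESeq2's size factors.

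Several of these levels also ran with the UMI count on each side of 5000. Gate cells were split at 1000 to under 2000, 2000 to under 5000, 5000 to under 10000, and 10000 or more UMIs, the last 2 steps being members. Ribosomal protein genes had 293941, 279069, 225734 and 184507 CPM over these steps in tumour 1, and 299053, 279317, 202521 and 161150 CPM in tumour 3. They were lower at each step in both tumours. Onecut2 had 531, 609, 791 and 1129 CPM in tumour 1 and 616, 629, 1084 and 1411 CPM in tumour 3, and so was higher at each step. Kcnq1ot1 had 102, 160, 180 and 339 CPM in tumour 1 and 79.3, 145, 275 and 638 CPM in tumour 3. Tff1 did not keep an order, with 6953, 6307, 3385 and 4521 CPM in tumour 1 and 8280, 6145, 4060 and 4442 CPM in tumour 3. Steps share their libraries and carry no test.

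**Figure D3:**
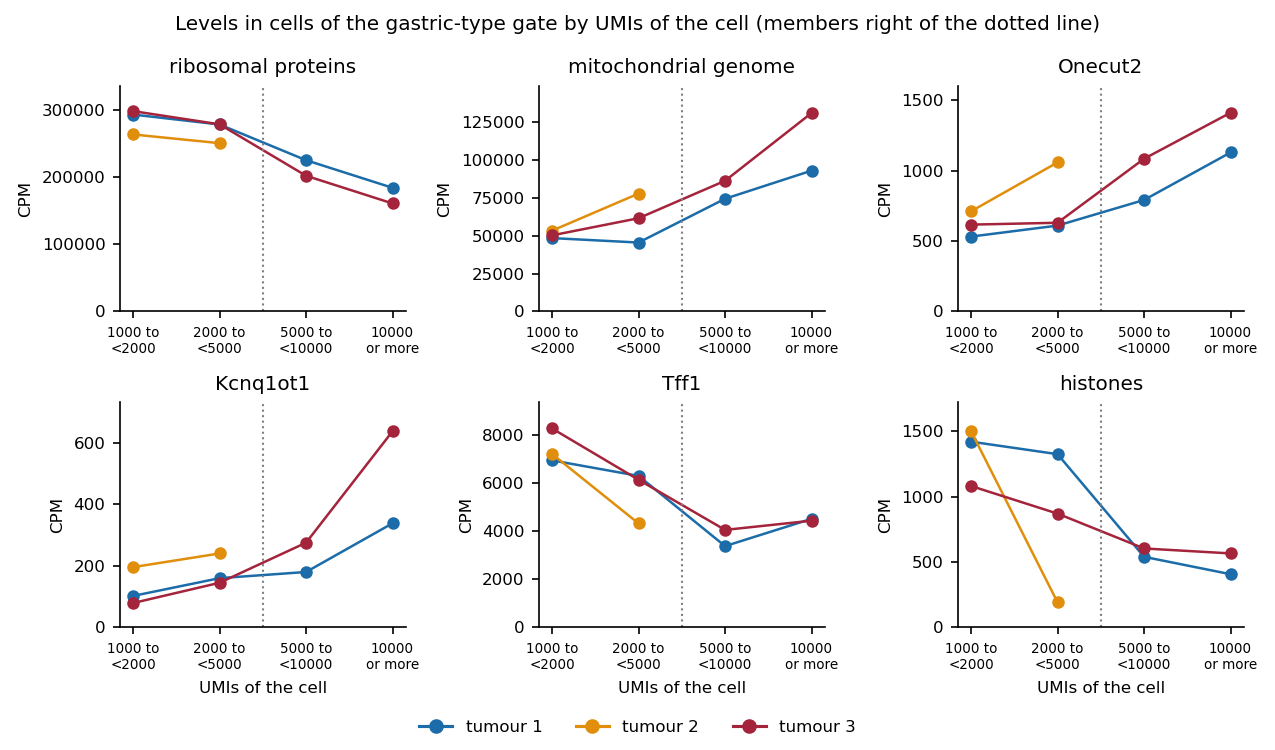
CPM (vertical axis) of 3 gene lists and 3 genes in gastric-gate cells by the cell's UMI count (horizontal axis, 4 steps), 1 line per tumour, with members right of the dotted line and steps of fewer than 5 cells not drawn. Ribosomal protein genes went down to 184507 and 161150 CPM at 10000 or more UMIs in tumours 1 and 3, while Onecut2 went up to 1129 and 1411 CPM.

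Genes that passed differed in transcript length, a property the rule did not use. By the longest transcript in GENCODE vM21, the median was 4866 bases for the 240 genes higher in members and 1529 bases for the 697 lower ones, against 3344 bases over all genes tested. Guanine and cytosine made up a median of 42.9% of the transcripts of higher genes and 54.7% of those of lower genes, against 48.6% over all. Of 429 genes with transcripts under 1000 bases, 44.1% were lower in members, at a median log2 difference of -0.79. Of 454 genes with transcripts over 8000 bases, 9.91% were higher, at a median of 0.40. The medians in between were -0.41, -0.03 and 0.22 in order of length. The part of length in the list results was not tested.

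Acinar-gate cells gave the same comparison in another kind of cell, with 97 cells of 5000 or more UMIs set against 693 below. There 461 genes were higher (6.32%) and 844 lower (11.6%) at the higher UMI count. Without tumour 1 the counts were 39 higher and 74 lower, and without tumour 3 they were 53 and 182. Of the 240 genes higher in members, 92 were also higher there (38.3% of the members' calls and 20.0% of the acinar-gate calls). Of the 697 lower in members, 503 were also lower there (72.2% and 59.6%). No gene was higher in members and lower there, and 3 were the reverse. Ribosomal protein genes had 60 of 80 lower there, histones 18 of 29 lower and the mitochondrial genome 13 of 13 higher. Medians by transcript length ran from -0.87 under 1000 bases to 0.54 over 8000. Immediate early genes had 2 of 18 higher in members and 11 of 18 in the acinar-gate comparison, a difference of counts that was not tested.

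The difference between the 2 comparisons was tested in the same fit. It passed for 1 gene in the higher direction (0.0137%) and 9 in the lower (0.123%), 0.137% in all, and 345 genes had an unadjusted p under 0.05. DESeq2 called none in either direction, with 88 genes at an unadjusted p under 0.05. Counts of higher and lower genes were 0 and 0 without tumour 1, 0 and 5 without tumour 2, and 2 and 23 without tumour 3. Cxcl5, a chemokine that draws neutrophils, had 54.0 and 271 CPM in members, against 84.9, 154 and 514 CPM in lower-UMI cells. In acinar-gate cells it had 96.3 and 13.4 CPM at the higher UMI count, against 4.26, 0 and 4.15 CPM below. The former sums held 124626 and 1195465 UMIs and the latter 469518, 41247 and 962835, so few molecules of Cxcl5 were counted there. Cxcl5 was thus lower in members and higher, from few molecules, in the acinar-gate cells of high UMI count (difference of differences -2.95 ± 0.63, adjusted p = 0.00423, edgeR). Zfp36l1, which promotes decay of AU-rich messages, had 108 and 165 CPM in members, against 107, 105 and 171 CPM in lower-UMI cells. In acinar-gate cells it had 193 and 491 CPM at the higher UMI count, against 106, 72.7 and 149 CPM below (-1.63 ± 0.30, adjusted p = 0.000484). Its paralog Zfp36 had a difference of -1.57 ± 0.33 (adjusted p = 0.0042). Without tumour 1 none of these 3 genes passed, with Cxcl5 at -2.62, Zfp36l1 at -1.91 and Zfp36 at -1.73. Without tumour 2 Cxcl5 did not pass (-2.93), and without tumour 3 it did (-5.30) while Zfp36l1 (-0.98) and Zfp36 (-1.69) did not.

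**Figure D4:**
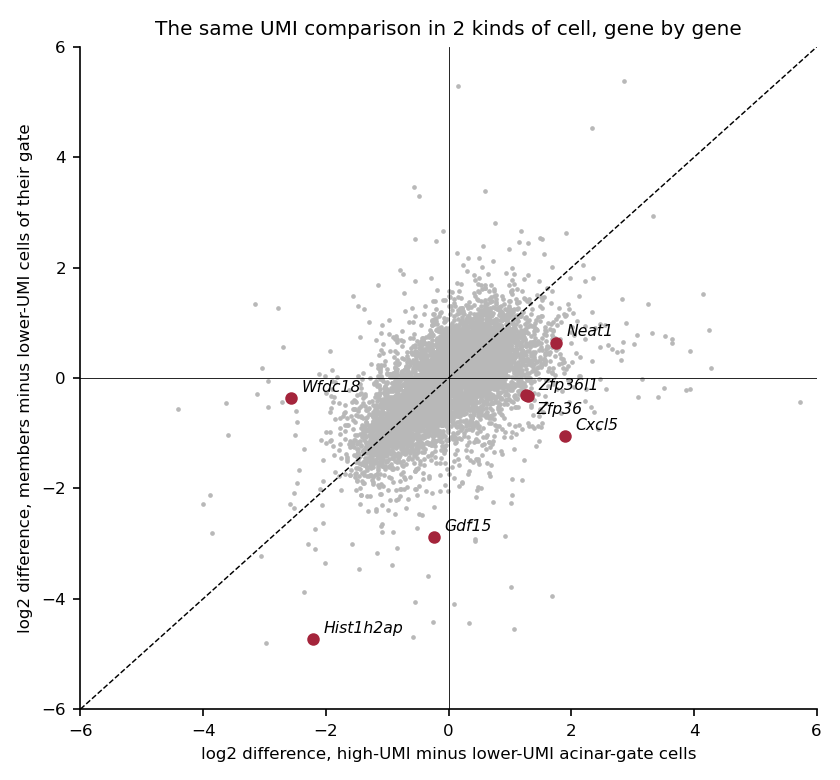
Log2 difference of members minus lower-UMI cells (vertical axis) against the log2 difference of high-UMI minus lower-UMI acinar-gate cells (horizontal axis), 1 grey point per gene tested, with the dashed line marking equal differences and 7 genes named that passed the test of the difference. Cxcl5 and Zfp36l1 lie to the right of the line, at 1.89 and 1.30 in acinar-gate cells against -1.05 and -0.33 in members.

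Members varied among themselves. With each thinned to 5000 UMIs, Tff1 ranged from 0 to 102 UMIs per cell with a median of 17, and 51 of 65 members had any at this depth. Tff2 had a median of 17 and was found in 60. Pigr had a median of 9 UMIs and was found in 64 of 65 members, and Onecut2 had a median of 5 and was found in 64. Reg1 ran from 0 to 187 UMIs (median 19), Dmbt1 from 0 to 101 (median 16) and Reg3b from 0 to 211 (median 3). Thus Reg1, Dmbt1 and Reg3b had wider ranges of UMIs than Onecut2 (0 to 16), though Reg1 and Dmbt1 also had higher medians. The G2/M list ran from 0 to 88 UMIs, with a median of 7 over all members, 22 in tumour 1 and 5 in tumour 3. Mki67 had a UMI in 17 of 23 members of tumour 1 and in 24 of 65 in all. Ribosomal protein genes took 471 to 1632 of the 5000 UMIs (median 1024), and the mitochondrial genome 19 to 999 (median 451).

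Mucosal defence genes, which ran from 2 to 247 UMIs per member (median 26), tended to be high in members where MYC targets were low. Against MYC targets their Spearman's rho across cells was -0.597 in tumour 1 (n = 23 members) and -0.520 in tumour 3 (n = 41). Against Tff1, a gate gene by which members were selected, it was -0.446 in tumour 1 and -0.524 in tumour 3, a description only. Against the G2/M list it was weak, at -0.069 in tumour 1 and -0.170 in tumour 3. Pigr and Clu, a secreted chaperone gene, had rho of 0.605 in tumour 1 and 0.318 in tumour 3. The UMI count before thinning had rho of -0.280 and -0.554 with ribosomal protein genes, and of 0.406 and 0.434 with the mitochondrial genome, in tumours 1 and 3. These are descriptions of cells that share a library and a fixed total, in which a rise of 1 list lowers the rest.

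**Figure D5:**
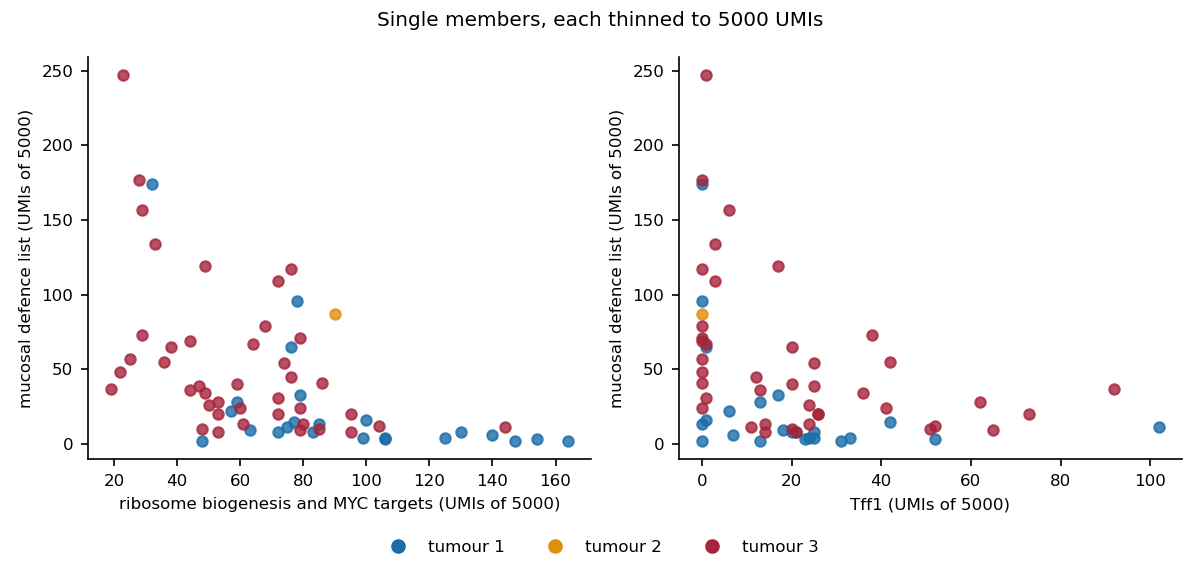
The 65 members, coloured by tumour, each thinned to 5000 UMIs and shown as a point, by UMIs of the mucosal defence list (vertical axis) against UMIs of the MYC target list and of Tff1 (horizontal axes). Most members with over 100 mucosal defence UMIs sat at the low end of both horizontal axes, with rho of -0.597 and -0.520 for MYC targets in tumours 1 and 3. Tff1 is a gate gene by which members were selected, so its panel is a description only.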

How the data were processed

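Single-cell RNA was measured in 3 tumours of 1 group. The deposited files hold raw UMI counts (whole numbers) of every gene in every barcode, unfiltered. Per the file headers they were written by Cell Ranger 3.0.2, and the submitters' processing notes name Cell Ranger 3, Seurat 3.1 and mm10. The labels name more than 1 version of the 3' kit, so the version is not stated here. Free RNA, doublet and strand handling by the authors are not given in the sources used here.

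Cells were classed by the rule above from the deposited counts. Counts were summed per class and tumour where 10 or more cells were present, which gave 10 sums: members in tumours 1 and 3, high-UMI acinar-gate cells in tumours 1 and 3, and both lower-UMI classes in all 3. A single model over all 10 was fitted with edgeR 4.0.16 in R 4.3.3 (quasi-likelihood test, filterByExpr, TMM, tumour as a block, Benjamini-Hochberg adjustment over 7293 genes at 0.05). The tumour is a block because all classes within it come from 1 animal. Deviations of the 2 lower-UMI classes from their means correlated at 0.029, 0.011 and 0.145 in tumours 1, 2 and 3. On simulated counts for the comparison of members with lower-UMI cells, 52 of 52 genes raised by a log2 of 2 and 30 of 42 raised by 1 were called, as were 56 of 61 lowered by 2, 17 of 45 lowered by 1, and 4 of 6760 unchanged ones. The simulated sums shared 1 expression profile and 1 dispersion, with no tumour effect and no class difference beyond the set changes. The real sums differ in all of these, so the rates need not hold for them.

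Genes were named by a rule: the label's markers, the 12 largest called differences in each direction with the same sign in every tumour and 50 CPM or more in the higher class, up to 6 in each direction for the difference of differences, up to 4 per list by size of log2 difference, and the 10 most abundant. Genes outside it are marked as chosen after their values were seen. The members and all lists were chosen with earlier results of these data known. Alternatives covered the scaling, the test (DESeq2 1.42.0), the low-count filter, the block, each tumour, the gates, the UMI limits, the home-library limit, doublet scores, and, chosen after seeing the data, thinned cells and sums without mitochondrial genes. Scrublet in scanpy 1.11.5 called 0 members doublets, too few calls to say much, and none was removed. Shares have exact Clopper-Pearson 95% intervals, and a count of 0 is bounded by 3 counts.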

Additional observations from a re-analysis of the deposited data

Results flagged for a closer look

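Each of these genes drew attention because the difference between high and lower UMI counts in gastric-gate cells was not the same as in acinar-gate cells, by an interaction term in the edgeR fit. The values are log2 differences of differences, members minus lower-UMI cells less the same in acinar-gate cells. Cxcl5 stood at -2.95, Zfp36l1 at -1.63 and Zfp36 at -1.57, with levels given in the report.

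Hist1h2ap stood at -2.52 ± 0.54 SE (adjusted p = 0.00423, edgeR): it had 401 and 79.5 CPM in high-UMI acinar-gate cells of tumours 1 and 3, against 1384, 970 and 384 CPM in lower-UMI acinar-gate cells. It was lower at high UMI counts in both kinds of cell, and more so in members. Gdf15, a stress-induced cytokine gene, stood at -2.64 ± 0.64 (adjusted p = 0.026), with 7.71 and 6.10 CPM in members, against 27.5, 41.9 and 45.7 CPM in lower-UMI cells. In acinar-gate cells Gdf15 had 40.1 and 136 CPM at high UMI counts, against 85.2, 24.2 and 123 CPM below. Neat1 stood at -1.11 ± 0.26 (adjusted p = 0.0226), with log2 differences of 0.64 in members and 1.75 in acinar-gate cells. Its difference of differences was -2.19 without tumour 3, where it passed, and -0.83 without tumour 2, where it did not (adjusted p = 0.536), and its difference in members was -0.06 without tumour 3. Wfdc18, a secreted whey acidic protein family gene, was the 1 gene on the positive side, at 2.21 ± 0.48 (adjusted p = 0.00423). Wfdc18 had 154 and 439 CPM in members, against 89.9, 112 and 612 CPM in lower-UMI cells, and 8.02 and 10.9 CPM in high-UMI acinar-gate cells, against 23.4, 0 and 52.97 CPM below. None of the 7 passed with DESeq2, without the tumour block, without tumour 1, or without the home-library limit, and all kept their sign there.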

How the results depend on the processing

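Members numbered 33 at a minimum of 8000 UMIs, 41 at a gastric-type gate of 0.6% and 0 at a home-library share of 90%, which could not be fitted. Against lower-UMI cells, genes higher and lower in members (240 and 697) numbered 36 and 284 with DESeq2, 28 and 155 with no replicate block by tumour, 117 and 420 against cells of 2000 to under 5000 UMIs, 72 and 371 at the 0.6% gate, and 116 and 286 with cells thinned. Higher genes numbered 418 with DESeq2's size factors and 154 with no low-count filter. Leaving out a tumour gave 2 to 306 higher and 15 to 711 lower.

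In acinar-gate cells the counts (461 and 844) became 69 and 247 with DESeq2, 64 and 139 with no block, 234 and 547 against 2000 to under 5000 UMIs, and 160 and 362 thinned. Higher genes were 297 unfiltered and 275 with no home-library limit. Leaving out a tumour gave 39 to 512 higher and 74 to 869 lower. The difference of differences (1 and 9) gave 0 and 0 with DESeq2, with no block, against 2000 to under 5000 UMIs, with no home-library limit and thinned. It gave 5 and 17 at 8000 UMIs, 2 lower at the 0.6% gate, 16 lower without the top 5% of doublet scores, and 2 higher with DESeq2's size factors or unfiltered. Leaving out a tumour gave 0 to 2 higher and 0 to 23 lower. The causes were not tested. Nek2 (1.73) turned sign without tumour 1 (-0.10; 2.84 without tumour 3) and at 8000 UMIs (-0.033). The 2 member sums of 259317 and 491588 UMIs limit what low genes can show.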
